A study of Mus musculus with 6 samples.

Results

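The insulin-like growth factor (IGF) system was followed across the cell types of the mouse lung through 9 genes: the ligand gene Igf1, the receptor genes Igf1r and Igf2r, and the binding protein genes Igfbp2, Igfbp3, Igfbp4, Igfbp5, Igfbp6 and Igfbp7. They were chosen by gene symbol from the 32285 genes counted, and all 9 were found. The measurements were single-cell RNA counts from 6 libraries of lung cells, 3 from lungs infiltrated by acute myeloid leukaemia (AML 1, 2 and 3) and 3 from normal lungs (Control 1, 2 and 3). The leukaemia carried the Trp53 genotype R172H/Δ, in which a mutant copy of the tumour suppressor gene sits beside a deleted one. Both groups were digested with Liberase and DNaseI and sorted for non-haematopoietic cells. The AML samples were then spiked with GFP-positive leukaemia cells, also sorted, so that tumour cells made up 20% and niche cells 80% of the input. The labels give no age, sex or strain, nor whether each library was made from a different mouse, so a p-value here reflects variation among 3 libraries that could be technical.

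In the IGF system, secreted IGF1 binds the receptor tyrosine kinase IGF1R, which signals through insulin receptor substrates to the PI3K and AKT kinases and restrains FOXO transcription factors. IGF2R, also the cation-independent mannose-6-phosphate receptor, carries IGF2 and lysosomal enzymes into the cell. Most secreted IGF is held by binding proteins, which extend its life and limit or deliver it to the receptor, and which proteases such as PAPPA cut to release it. IGFBP7 differs from the others in its weak binding of IGF. In the lung, fibroblasts are a known source of IGF1.

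The AML libraries held 39919902 to 46018541 unique molecular identifiers (UMIs, 1 per RNA molecule counted) and 4496 to 5790 cells after filtering, against 19060359 to 26789176 UMIs and 1718 to 3673 cells in Control libraries. Any pair of libraries shared 1 to 24 cell barcodes. Cell classes were rebuilt from marker genes, since no annotation by the authors was used here, and a difference from the study may come from rebuilt names. Of 29 clusters, 3 stayed unnamed and were left out of the main comparison and the heat map. They held 99, 19 and 60 cells in AML 1, 2 and 3, against 577, 499 and 985 cells in Control 1, 2 and 3. Among them, a cluster led by Esm1 was nearest to general capillary endothelium by its markers. It made up 2.02%, 0.411% and 0.967% of cells in AML 1, 2 and 3, against 21.2%, 13.3% and 14.4% in Control 1, 2 and 3. A gene was compared between AML and Control in the 11 classes with at least 20 cells in every library, from UMIs summed per library. Levels are given as CPM, in which the UMIs of each library and class are scaled to 1000000 in all. Levels of single genes also carry edgeR's TMM size factors, and sums over marker lists and values within a cluster do not. The class named for megakaryocytes and platelets had endothelial markers at 13190 to 14354 CPM in AML and 10603 to 12728 CPM in Control libraries. General capillary endothelium had them at 13783 to 17690 CPM in AML and 10758 to 13486 CPM in Control libraries. Haematopoietic markers in the platelet class summed to 37.3 to 73.2 CPM in AML and 19.5 to 64.7 CPM in Control libraries. By these sums the platelet class was mainly endothelial, and its name is a label only. The class named for pericytes carried the endothelial markers at 6097 to 9462 CPM in AML and 9144 to 9474 CPM in Control libraries. Scaled by these markers to general capillary endothelium, endothelial RNA was an estimated 64.9%, 34.5% and 57.0% of the pericyte class in AML 1, 2 and 3. In Control 1, 2 and 3 it was 85.6%, 67.8% and 72.2%. With it subtracted, edgeR called 0 genes in the pericyte class, against 5 without that step. In the platelet class that step was not run, and a call there does not show a change outside endothelium.

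Each of the 9 genes had its own set of high classes (the heat map of mean CPM by class). These levels are described with no test. Igf1 was found mainly in fibroblasts, at a mean over libraries of 223 CPM in adventitial fibroblasts (range 145 to 372), 192 CPM in alveolar duct myofibroblasts (50.2 to 302) and 68.3 CPM in alveolar fibroblasts (3.95 to 166). These 3 ranges overlapped. No Igf1 UMI was counted in arterial, venous, ciliated or alveolar type 1 cells. The haematopoietic clusters found almost wholly in AML libraries, which received the added leukaemia cells, came to 2842 cells and held 0 Igf1 UMIs, which allows a level of up to 0.0447 CPM.

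Igf1r was broadly distributed. Its mean was 294 CPM in smooth muscle (219 to 455), 286 CPM in alveolar duct myofibroblasts, 248 CPM in alveolar fibroblasts and 245 CPM in ciliated cells (207 to 305). It was low in alveolar type 2 cells, at 7.12 CPM (3.65 to 10.3), and that range lay below the range of the T and NK lymphocytes next above them in the order. The AML-only haematopoietic clusters held 60.8 CPM of Igf1r, with 73.2 CPM in the highest of the 3 AML libraries. Igf2r ran from 87.3 CPM in ciliated cells (56.2 to 111) to 7.76 CPM in aerocytes (5.18 to 10.9), the capillary endothelial cells of gas exchange, and no neighbours in its order had separate ranges.

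Igfbp2 was highest in epithelium, with a mean of 1076 CPM in alveolar type 1 cells (171 to 1659) and 145 CPM in ciliated cells (111 to 196), and the ciliated range lay above that of the class next below, smooth muscle. Igfbp3 was highest in alveolar duct myofibroblasts, at 1295 CPM (609 to 1975). Igfbp4 was highest in adventitial fibroblasts at 1397 CPM (984 to 1836) and in arterial endothelium at 1265 CPM (647 to 2096), ranges that overlapped.

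Igfbp5 and Igfbp6 both peaked in mesothelial cells, the lining of the pleura, where only the AML libraries had 10 or more cells. Igfbp5 reached 11254 CPM there (9533 to 12925), and the lymphatic endothelium next below it had 1162 CPM (166 to 2315). Igfbp6 reached 6377 CPM in mesothelial cells (4982 to 8235), then 2135 CPM in alveolar type 1 cells (888 to 3765). The alveolar type 1 class also carried the 8 endothelial markers, which summed to 6047, 8172 and 1670 CPM in AML 1, 2 and 3 and to 4194, 962 and 4125 CPM in Control 1, 2 and 3, and the part of that RNA in its levels was not tested. Igfbp7 was highest in aerocytes, at 6060 CPM (3916 to 7469), followed by smooth muscle at 3374 CPM (2631 to 4972).

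**Figure D1:**
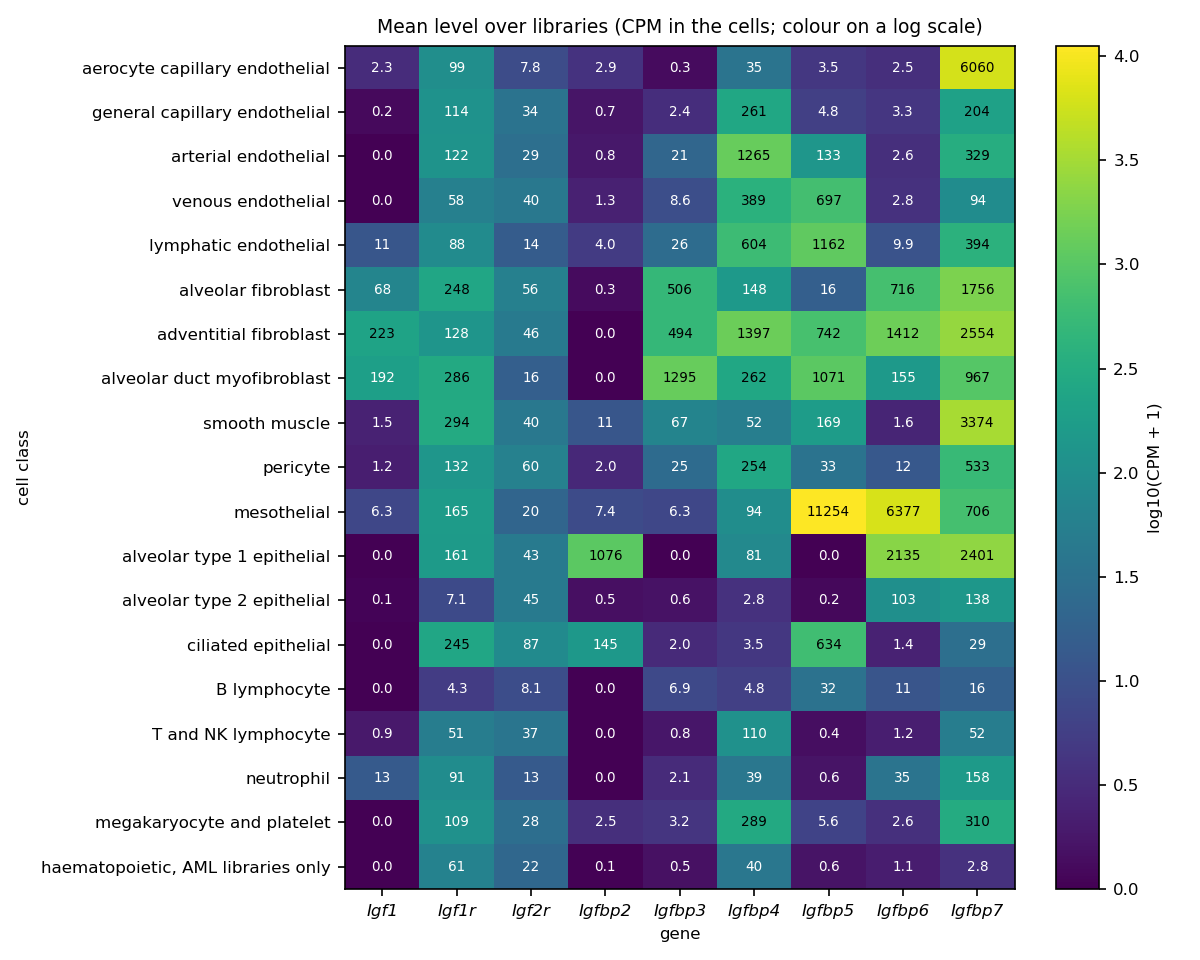
Mean level of the 9 IGF genes in each cell class, as a heat map on a log scale of CPM, with classes down the page and genes across. Each cell is the mean over the libraries with at least 10 cells of that class; the mesothelial and AML-only haematopoietic levels come from AML libraries alone. Igf1 and Igfbp3 stand out in fibroblasts, Igfbp2 in alveolar type 1 and ciliated cells, Igfbp5 and Igfbp6 in mesothelial cells and Igfbp7 in aerocytes.

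Between AML and Control lungs, 4 differences passed the test: Igf1 fell in alveolar fibroblasts, Igfbp7 fell and Igfbp6 rose in alveolar type 2 cells, and Igfbp5 fell in smooth muscle. Over the 11 classes there were 99 pairs of a member and a class, of which 57 had enough counts to be tested. The other 42 were not tested. In edgeR's quasi-likelihood test, with p adjusted over all genes of the class and called below 0.05, 1 of the 57 was higher and 3 were lower in AML libraries. Over all genes in the same classes, 1.96% were called. DESeq2 called 8 of the pairs, with 2.56% of all genes called. Without the filter on low counts edgeR called 12 of the 57 and 3 of the other 42, with 2.36% of all genes called. At an unadjusted p below 0.05, 23 of the 57 passed, and so did 15.1% of all genes over the same classes.

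**Figure D2:**
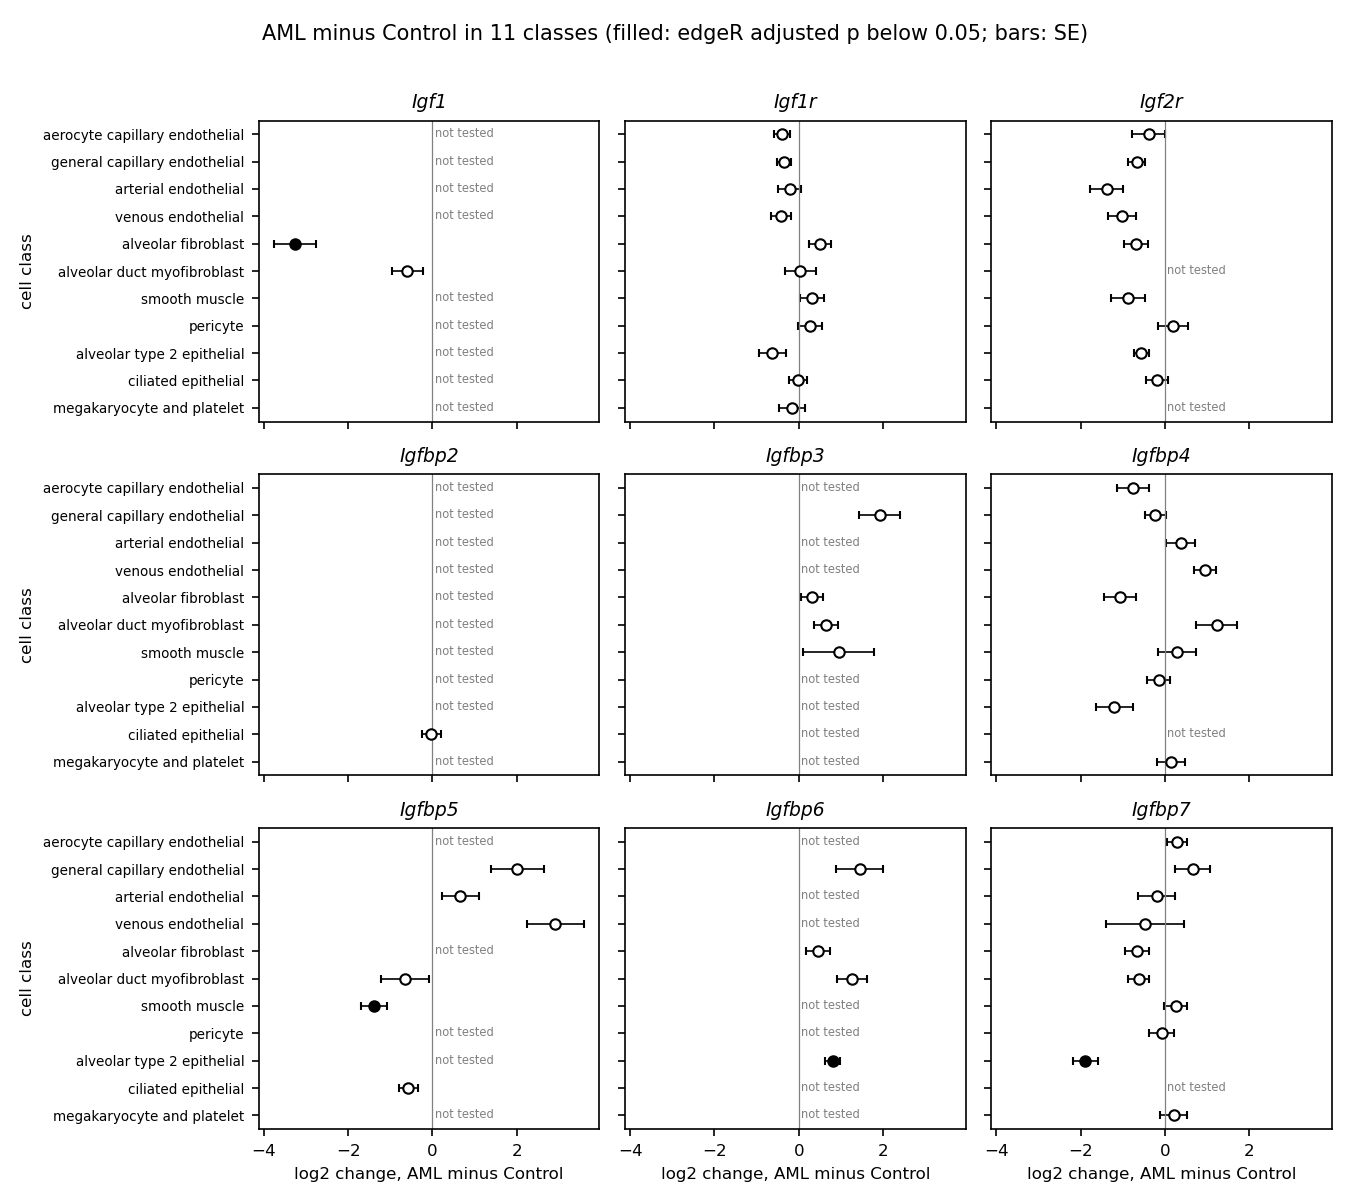
Log2 change, AML over Control, of each of the 9 genes (1 panel each) in those of the 11 classes in which it had enough counts to be tested. The other pairs are marked as not tested. Bars are standard errors from edgeR and filled points have an adjusted p below 0.05. The 4 filled points are Igf1 in alveolar fibroblasts at -3.26, Igfbp7 in alveolar type 2 cells at -1.89, Igfbp6 in the same cells at 0.81 and Igfbp5 in smooth muscle at -1.39.

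Igf1, the gene of the ligand (ENSMUSG00000020053, mm10 chromosome 10, 87858265 to 87937042, plus strand), fell in the alveolar fibroblasts of AML lungs. It stood at 13.2, 3.95 and 22.9 CPM in AML 1, 2 and 3, from 6, 4 and 22 UMIs, against 62.2, 166 and 141 CPM in Control 1, 2 and 3, from 31, 64 and 64 UMIs. All 3 AML values lay below all 3 Control values, with AML 2 lowest and Control 2 highest. Groups were apart in this way, in either direction, for 22.1% of the genes tested in the class, and 3.65% were called.

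The mean was 13.3 ± 9.48 CPM in AML and 123 ± 54.4 CPM in Control libraries (SD, n = 3 each). The log2 change was -3.26 ± 0.49 (SE, edgeR adjusted p = 0.00437). With each of the 6 libraries left out in turn it lay between -4.11, without AML 3, and -2.70, without AML 2, and the call held each time. The call was lost when cells were clustered at a coarser resolution of 0.5 (log2 change -1.28, edgeR adjusted p = 0.431). There the class took in 140 adventitial fibroblasts, 41 general capillary cells and 2 smooth muscle cells beside its own 848 cells. Those adventitial cells carried Igf1 in both groups, and the part of the added cells in the lost call was not tested.

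The share of alveolar fibroblasts with an Igf1 UMI was 4.76%, 1.25% and 6.77% in AML 1, 2 and 3, against 22.7%, 38.3% and 30.9% in Control 1, 2 and 3. The cells were shallower in AML libraries, with a median of 3533 UMIs against 6786 UMIs in Control libraries. With each cell thinned to 1500 UMIs, the shares were 0.98%, 0.327% and 1.73% in the AML libraries, against 2.56%, 16.1% and 13.1% in the Control libraries. Thinning left out 37 AML and 16 Control cells. B lymphocytes, which should lack Igf1, held none in any library, and T and NK lymphocytes held it in Control 3 only, at 1.45% of cells.

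Markers of a neighbouring type moved with Igf1, and so did markers of the wider mesenchymal lineage. The 8 adventitial fibroblast markers summed to 735, 484 and 1100 CPM in the alveolar fibroblasts of AML 1, 2 and 3, against 1710, 2168 and 1558 CPM in Control 1, 2 and 3, and all 8 had a lower mean in AML. In the adventitial fibroblasts themselves the same sum was 19664 to 27156 CPM in AML and 14175 to 25111 CPM in Control libraries. In the alveolar fibroblasts the 8 mesenchymal markers summed to 2668 to 4133 CPM in AML and 6403 to 7102 CPM in Control libraries. Of these, 2 had a higher mean in AML. The 8 markers of alveolar fibroblasts themselves summed to 11435 to 17064 CPM in AML and 11827 to 11999 CPM in Control libraries. There, 6 of the 8 had a lower mean in AML. The part of these shifts in the fall of Igf1 was not tested. The 8 endothelial markers summed to 86.5, 123 and 93.6 CPM in AML 1, 2 and 3, against 1071, 191 and 481 CPM in Control 1, 2 and 3, and Igf1 fell as far with that RNA subtracted (log2 change -3.32). The antisense gene Igf1os, on the other strand, was at 0 CPM in all libraries of the class but Control 3, where it was at 2.21 CPM.

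No Igf1 call was made in the other fibroblast classes. In alveolar duct myofibroblasts, contractile cells at the alveolar openings, Igf1 stood at 195, 50.2 and 215 CPM in AML 1, 2 and 3 and at 179, 302 and 212 CPM in Control 1, 2 and 3. The groups overlapped, and the log2 change of -0.60 ± 0.37 was not called (edgeR adjusted p = 0.491, with 1.58% of genes called in the class). In adventitial fibroblasts, which surround vessels and airways and had 13 to 36 cells per AML and 14 to 25 per Control library, Igf1 stood at 269, 145 and 372 CPM in AML 1, 2 and 3 and at 155, 189 and 207 CPM in Control 1, 2 and 3. These groups overlapped too (log2 change 0.65 ± 0.33, edgeR adjusted p = 0.81, with 0.0573% of genes called).

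The difference between the changes was itself tested, in fits of the fibroblast classes together with each library as a block, chosen after the values were seen. The log2 change of Igf1 in alveolar fibroblasts was lower than that in alveolar duct myofibroblasts by a difference of -2.53 ± 0.36 (edgeR adjusted p = 0.000708, with 0.305% of genes called). Against adventitial fibroblasts the difference was -3.77 ± 0.41 (edgeR adjusted p = 3.91e-07, with 0.657% of genes called). Igf1 was below the filter on low counts in the other 9 classes.

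Among those 9, aerocytes were the class in which Igf1 kept the groups apart. The share of all genes with groups apart was not counted in aerocytes, and was 15.9% to 29.4% in the classes where it was. It had 0 UMIs in each AML library, against 13, 10 and 5 UMIs in Control 1, 2 and 3, or 7.08, 3.61 and 2.84 CPM. With 3 counts over the AML group as the floor, the pooled level was at least 5.19-fold lower in AML. Without the filter edgeR called the difference (adjusted p = 0.00259, with 3.72% of genes called in the class). The Control UMIs came from few cells, 3.76%, 1.5% and 1.45% of the class in Control 1, 2 and 3. Of the T and NK lymphocytes, 0%, 0% and 1.45% held Igf1 in the same libraries. General capillary endothelium had 0.448, 0.363 and 0.191 CPM of Igf1 in Control 1, 2 and 3. The part of free RNA was not tested. The 8 mesenchymal markers summed to 0.716, 1.24 and 2.25 CPM in the aerocytes of AML 1, 2 and 3, against 1.16, 5.23 and 5.66 CPM in Control 1, 2 and 3, with none higher in the AML mean and Lum at 0. Their part in the result was not tested.

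**Figure D3:**
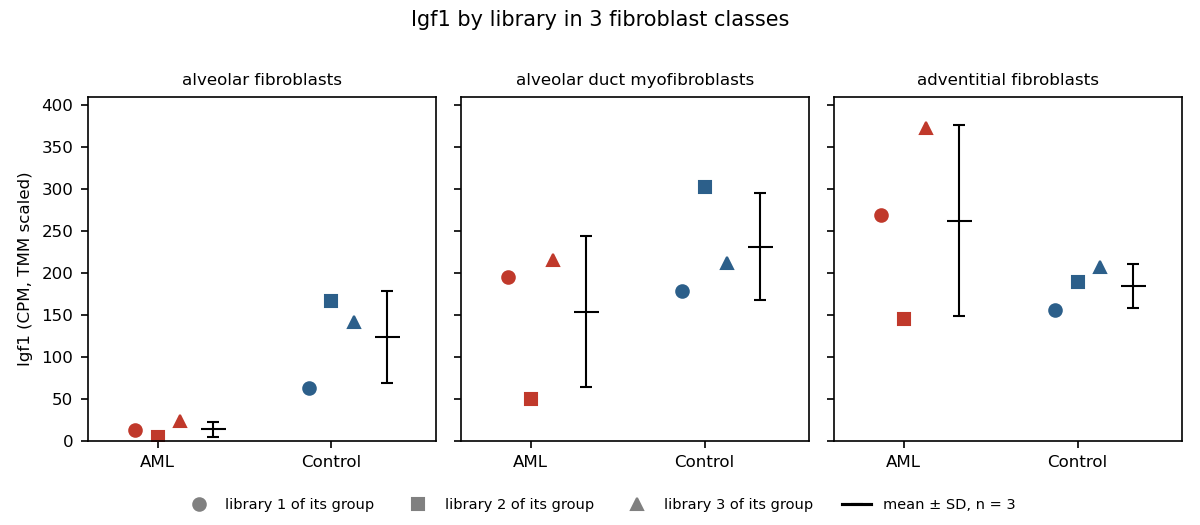
Igf1 level in CPM in each AML and Control library for alveolar fibroblasts, alveolar duct myofibroblasts and adventitial fibroblasts. Points are libraries and bars are group means ± SD (n = 3). In alveolar fibroblasts the 3 AML libraries (3.95 to 22.9 CPM) lie below the 3 Control libraries (62.2 to 166 CPM), and in the other classes the groups overlap.

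The receptor genes gave no call. Igf1r (mm10 chromosome 7, 67952827 to 68233668, plus strand) was tested in all 11 classes, with a log2 change above 0 in 4 and below 0 in 7, between -0.62 and 0.50. None was called by edgeR (lowest adjusted p = 0.244) or by DESeq2, and none passed at an unadjusted p below 0.05. In alveolar fibroblasts, where Igf1 fell, Igf1r stood at 226, 431 and 234 CPM in AML 1, 2 and 3 and at 223, 211 and 166 CPM in Control 1, 2 and 3. The groups were apart by a small margin, since AML 1 and Control 1 nearly met, and the log2 change of 0.50 ± 0.26 was not called (edgeR adjusted p = 0.352). Igf1r also kept the groups apart in aerocytes and general capillary endothelium, where every AML value was lower. The log2 changes there were -0.40 ± 0.19 and -0.35 ± 0.16 (edgeR adjusted p = 0.329 and 0.244).

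Igf2r (mm10 chromosome 17, 12682406 to 12769664, minus strand) was tested in 9 classes, and its log2 change was below 0 in 8 of them, from -1.39 in arterial endothelium to 0.19 in the pericyte class, where 0.0995% of genes were called. None was called by edgeR or by DESeq2 with all libraries and the filter on low counts, and 6 of the 9 passed at an unadjusted p below 0.05, which 15.2% of all genes in those 9 classes did. The classes come from the same 6 libraries and are not independent of each other. In arterial endothelium Igf2r stood at 19.2, 20.7 and 8.64 CPM in AML 1, 2 and 3, against 38.9, 39.7 and 47.5 CPM in Control 1, 2 and 3. The groups were apart there, as for 17.7% of genes in that class, at a log2 change of -1.39 ± 0.39 (edgeR adjusted p = 0.11, with 0.682% of genes called). The lowest adjusted p, 0.08 in edgeR, was that of alveolar type 2 cells, where Igf2r stood at 37.9, 29.6 and 42.5 CPM in AML 1, 2 and 3 and at 62.5, 50.6 and 47.3 CPM in Control 1, 2 and 3. Without the filter edgeR called Igf2r in general capillary endothelium (log2 change -0.65, adjusted p = 0.0440) and in venous endothelium (-1.01, adjusted p = 0.0206), and without AML 1 it called the venous difference (-1.35, adjusted p = 0.0483). Airn, a long RNA on the other strand, overlaps Igf2r.

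Igfbp7, a secreted matrix-associated protein gene (mm10 chromosome 5, 77349240 to 77408041, minus strand), fell in alveolar type 2 cells, the surfactant-making cells of the alveolus. It stood at 77.8, 27.6 and 70.7 CPM in AML 1, 2 and 3, from 228, 69 and 271 UMIs, against 184, 221 and 244 CPM in Control 1, 2 and 3, from 616, 768 and 734 UMIs. All AML values lay below all Control values, as groups were apart for 26% of genes in the class, and AML 2 was lowest. The mean was 58.7 ± 27.2 CPM in AML and 217 ± 30.3 CPM in Control libraries (SD, n = 3 each). The log2 change was -1.89 ± 0.30 (edgeR adjusted p = 0.00666, with 4.46% of genes called).

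The share of alveolar type 2 cells with an Igfbp7 UMI was 53.6%, 24.0% and 44.8% in AML 1, 2 and 3, against 90.3%, 90.6% and 87.7% in Control 1, 2 and 3. After thinning to 1500 UMIs it was 11.7%, 4.11% and 10.2% in AML 1, 2 and 3, against 27.7%, 30.6% and 31.2% in Control 1, 2 and 3. In B, T and NK lymphocytes it was 0 to 5.06% in AML and 0 to 12.5% in Control libraries, the highest in Control 1 with 8 B cells and 16 T and NK cells. The Igfbp7 level of T and NK lymphocytes, a class that was not tested, was 5.99, 0 and 13.5 CPM in AML 1, 2 and 3, against 57.3, 76.1 and 157 CPM in Control 1, 2 and 3. It was thus lower in every AML library there too, and the part of free RNA in the alveolar type 2 result was not tested. The Igfbp7 call was lost without Control 1 (log2 change -1.99, edgeR adjusted p = 0.127) and with doublets kept (-1.74, edgeR adjusted p = 0.0953). It held with endothelial RNA subtracted (-1.93, edgeR adjusted p = 0.00776). The 8 markers of alveolar type 1 cells, whose class had high Igfbp7 and carried endothelial markers as given above, summed to 1876, 2032 and 2047 CPM in the type 2 cells of AML 1, 2 and 3, against 2504, 2514 and 2845 CPM in Control 1, 2 and 3, with 7 of 8 lower. Their part in the result was not tested. Polr2b, which overlaps Igfbp7 on the other strand, stood at 28.3, 33.2 and 26.9 CPM in AML 1, 2 and 3 and at 26.3, 25.0 and 25.0 CPM in Control 1, 2 and 3.

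Igfbp6, whose protein prefers IGF2 (mm10 chromosome 15, 102144362 to 102149511, plus strand), rose in the same alveolar type 2 cells. It stood at 109, 165 and 123 CPM in AML 1, 2 and 3, against 68.2, 76.8 and 77.3 CPM in Control 1, 2 and 3. All AML values were higher, and the Control values lay close together. The log2 change was 0.81 ± 0.18 (edgeR adjusted p = 0.0163). The shares of cells with an Igfbp6 UMI overlapped before thinning, at 66.5%, 69.2% and 62.1% in AML 1, 2 and 3 and 69.9%, 69.4% and 63.7% in Control 1, 2 and 3. After thinning, 15.7%, 18.7% and 15.1% of cells held an Igfbp6 UMI in AML 1, 2 and 3, against 12.5%, 11.8% and 11.2% in Control 1, 2 and 3. Among B, T and NK lymphocytes the thinned share was 0 in every library but AML 3, whose B cells held it at 1.39%; before thinning it reached 3.41% there and 5.56% in the T and NK cells of Control 1. The call was lost without AML 2 (edgeR adjusted p = 0.13), without AML 3 (0.077) and without Control 3 (0.0525).

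Igfbp5, a gene of matrix-rich tissue and smooth muscle (mm10 chromosome 1, 72857932 to 72874884, minus strand), fell in smooth muscle. It stood at 145, 64.4 and 73.1 CPM in AML 1, 2 and 3, from 46, 16 and 30 UMIs, against 312, 201 and 222 CPM in Control 1, 2 and 3, from 176, 124 and 77 UMIs. The groups did not overlap, as for 15.9% of genes in the class, and AML 1 was nearest to the Control range. The share of cells with an Igfbp5 UMI was 31.2%, 12.9% and 20.5% in AML 1, 2 and 3, against 44.4%, 50.8% and 36.6% in Control 1, 2 and 3. After thinning to 1500 UMIs the shares overlapped, at 15.2%, 9.38% and 5.97% in AML 1, 2 and 3 and 20.0%, 18.3% and 14.6% in Control 1, 2 and 3, with AML 1 above Control 3. In B, T and NK lymphocytes the thinned share was 0 to 1.39% in AML and 0 in all Control libraries. The log2 change was -1.39 ± 0.32 (edgeR adjusted p = 0.0307, with 0.803% of genes called). The call was lost without AML 2, without AML 3 or without any 1 of the Control libraries (edgeR adjusted p = 0.0579 to 0.242), and with doublets kept (0.0507). The 8 adventitial markers summed to 83.7, 61.8 and 118 CPM in the smooth muscle of AML 1, 2 and 3, against 193, 197 and 312 CPM in Control 1, 2 and 3, with 7 of 8 lower. Their part in the result was not tested.

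**Figure D4:**
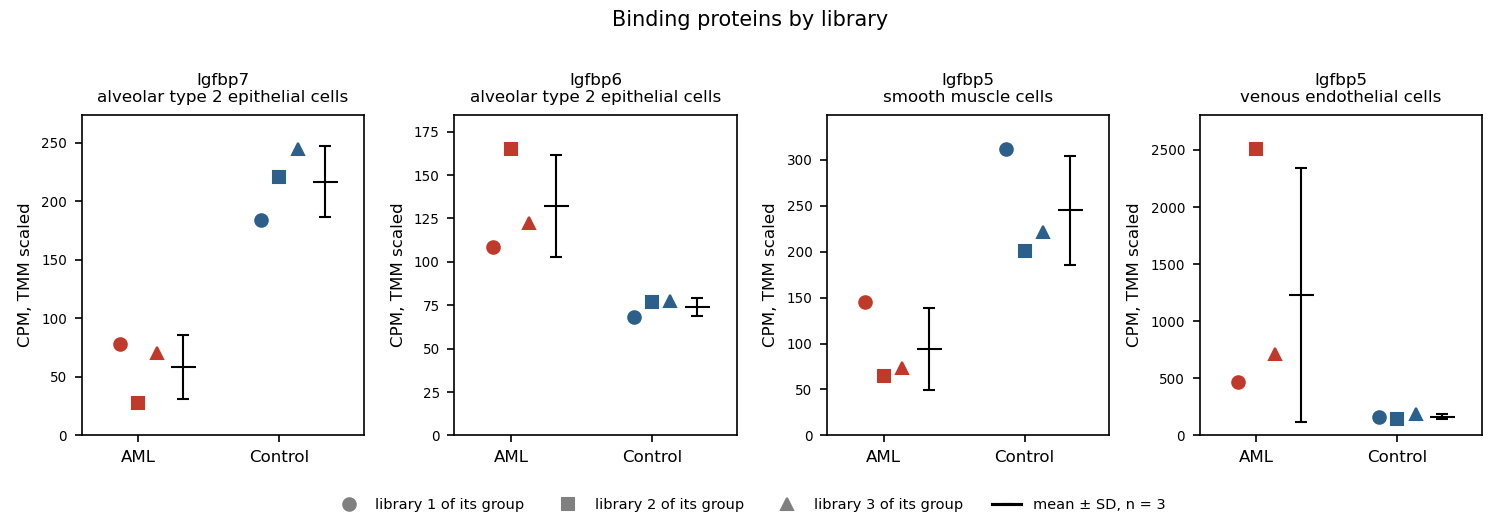
Levels in CPM of Igfbp7 and Igfbp6 in alveolar type 2 cells and of Igfbp5 in smooth muscle and venous endothelium, with AML libraries left of Control libraries. Points are libraries and bars are group means ± SD (n = 3). Igfbp7 (27.6 to 77.8 CPM in AML, 184 to 244 CPM in Control) and Igfbp6 run in opposite directions in the same cells, and Igfbp5 in venous endothelium is spread widely in AML (466 to 2509 CPM).

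In venous endothelium Igfbp5 was higher in each AML library than in any Control library, without a call. It stood at 466, 2509 and 715 CPM in AML 1, 2 and 3, against 164, 141 and 187 CPM in Control 1, 2 and 3. Groups were apart for 19.3% of genes in the class, and AML 2 was far above the other AML libraries. The log2 change of 2.92 ± 0.68 was not called by edgeR (adjusted p = 0.162, with 0.421% of genes called). It was 3.31 without AML 1 (edgeR adjusted p = 0.00299) and 1.84 without AML 2 (0.00372), and DESeq2 called it (adjusted p = 0.00972, with 1.54% of genes called). The 7 lymphatic markers, of the endothelial class with the highest Igfbp5, summed to 3552, 7118 and 4048 CPM in the venous class of AML 1, 2 and 3, against 2939, 3577 and 3139 CPM in Control 1, 2 and 3. Of the 7, Lyve1 was detected in at least 50% of cells in at least 80% of endothelial clusters, so it does not tell these classes apart. By mean, 4 of the 7 were higher in AML, 2 were lower and Reln was at 0 in every library. Their part in the result was not tested.

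Igfbp4, whose protein is an inhibitor of IGF action until PAPPA cuts it (mm10 chromosome 11, 99041244 to 99054392, plus strand), was tested in 10 classes with no edgeR call, 4 at an unadjusted p below 0.05 and 1 DESeq2 call. Its log2 change was above 0 in 5 classes and below 0 in 5. In venous endothelium it stood at 359, 626 and 550 CPM in AML 1, 2 and 3, against 202, 313 and 281 CPM in Control 1, 2 and 3. The groups were apart at a log2 change of 0.95 ± 0.26, which edgeR did not call (adjusted p = 0.141) and DESeq2 did (adjusted p = 0.0306). In alveolar fibroblasts it stood at 103, 65.1 and 128 CPM in AML 1, 2 and 3 and at 84.3, 273 and 236 CPM in Control 1, 2 and 3. The groups overlapped through Control 1, without which the log2 change of -1.06 became -1.43 (edgeR adjusted p = 0.00784).

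Igfbp3, the main carrier of IGF1 in blood (mm10 chromosome 11, 7206086 to 7213923, minus strand), was tested in 4 classes, with a log2 change above 0 in each, no edgeR call, 2 at an unadjusted p below 0.05 and 1 DESeq2 call. In general capillary endothelium it was near 0, at 2.39, 5.43 and 3.40 CPM in AML 1, 2 and 3 and 0.673, 0.726 and 1.53 CPM in Control 1, 2 and 3. The groups were apart, as for 29.4% of genes in the class, at a log2 change of 1.92 ± 0.48. The edgeR adjusted p was 0.0655, with 2.05% of genes called, and the DESeq2 adjusted p was 0.0437, with 5.45% called. The change was 4.55 with doublets kept (edgeR adjusted p = 0.0177), and edgeR also called it without AML 1 (log2 change 2.16, adjusted p = 0.0190) and with no filter on low counts (1.94, adjusted p = 0.0121). In adventitial fibroblasts Igfbp3 stood at 370, 1806 and 561 CPM in AML 1, 2 and 3, against 56.5, 134 and 34.5 CPM in Control 1, 2 and 3. All AML values lay above all Control values, with AML 2 resting on 13 cells. The share of all genes with groups apart was not counted in this class. The log2 change of 3.66 ± 0.85 was not called by edgeR (adjusted p = 0.395), and was called by DESeq2 (adjusted p = 0.00849, with 0.834% of genes called) and by edgeR without AML 1 (log2 change 4.09, adjusted p = 0.0219) or without AML 2 (2.64, adjusted p = 0.00323).

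Igfbp3 also separated the groups in arterial endothelium, where its counts were too low for the edgeR filter. It stood at 76.9, 10.3 and 32.4 CPM in AML 1, 2 and 3, against 0, 1.81 and 2.50 CPM in Control 1, 2 and 3. These came from 28, 5 and 15 UMIs in AML 1, 2 and 3 and 0, 1 and 1 UMIs in Control 1, 2 and 3. All AML values were higher and spread widely. Groups were apart for 17.7% of the genes that passed the filter in the class. Without the filter on low counts edgeR called this difference (log2 change 4.49, adjusted p = 1.68e-07), as it did with doublets kept (adjusted p = 0.000498) and without AML 2 (adjusted p = 0.0190). Without the filter edgeR called 213 genes in the class, against 41 with it. Adjusted p was also far lower without the filter for other genes. For Igf1 in alveolar fibroblasts it went from 0.00437 to 3.03e-17 in edgeR.

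General capillary endothelium, the most numerous class, was made of 5 clusters held in different shares by the groups. The cluster led by Plat, Spry4 and Inhbb held 6.90%, 86.5% and 37.7% of the class in AML 1, 2 and 3, against 0.372%, 0.702% and 0.507% in Control 1, 2 and 3. The cluster led by Glp1r, Tcim and Wfdc1 held 31.2%, 0.706% and 1.44% of the class in AML 1, 2 and 3, against 55.1%, 52.7% and 58.5% in Control 1, 2 and 3. In the class as a whole Igfbp7 stood at 138, 452 and 163 CPM in AML 1, 2 and 3 and at 129, 187 and 153 CPM in Control 1, 2 and 3. AML 2 alone lay far above the rest, and the groups overlapped (edgeR adjusted p = 0.388). Igfbp5 stood at 3.30, 10.9 and 9.70 CPM in AML 1, 2 and 3 and at 0.448, 3.75 and 0.957 CPM in Control 1, 2 and 3. The groups overlapped through AML 1 and Control 2, edgeR did not call the log2 change of 2.01 ± 0.63 (adjusted p = 0.121), and DESeq2 did (adjusted p = 0.0255).

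Igfbp6 had a log2 change above 0 in all 4 classes in which it was tested. In alveolar duct myofibroblasts it stood at 178, 340 and 151 CPM in AML 1, 2 and 3, against 69.0, 139 and 55.5 CPM in Control 1, 2 and 3. AML values lay above Control values by a narrow margin between AML 3 and Control 2, where groups were apart for 19.6% of genes in the class, and edgeR did not call the log2 change of 1.26 ± 0.36 (adjusted p = 0.0822). In alveolar fibroblasts it stood at 690, 1014 and 826 CPM in AML 1, 2 and 3 and at 424, 845 and 495 CPM in Control 1, 2 and 3, and the groups overlapped.

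Igfbp7 in aerocytes, its highest class, stood at 6912, 7469 and 5437 CPM in AML 1, 2 and 3 and at 3916, 6840 and 5788 CPM in Control 1, 2 and 3. The groups overlapped there (log2 change 0.28 ± 0.23, edgeR adjusted p = 0.611). In alveolar duct myofibroblasts Igfbp7 stood at 860, 692 and 793 CPM in AML 1, 2 and 3, against 1087, 1139 and 1232 CPM in Control 1, 2 and 3. These groups did not overlap, but the log2 change of -0.62 ± 0.24 was not called (edgeR adjusted p = 0.231).

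Mesothelial cells were too few in Control libraries to test, at 9, 7 and 7 cells in Control 1, 2 and 3 beside 22, 19 and 14 cells in AML 1, 2 and 3. Igf1 had 1 UMI in each of the 3 AML libraries, against 58, 11 and 1 UMIs in Control 1, 2 and 3. Only Control 1 and Control 2 stood above 1 UMI. Igfbp5, the gene at its highest in this class, had 2583, 1211 and 1982 UMIs in AML 1, 2 and 3, against 1773, 319 and 499 UMIs in Control 1, 2 and 3.

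In the AML-only haematopoietic clusters, beside the Igf1r level above, Igf2r averaged 21.7 CPM (21.1 to 22.5 over the 3 AML libraries) and Igfbp4 averaged 39.7 CPM (27.4 to 49.5). The other binding protein genes averaged between 0.0751 CPM, for Igfbp2, and 2.85 CPM, for Igfbp7.

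Igfbp2 (mm10 chromosome 1, 72824503 to 72852474, plus strand), a binding protein of epithelia and fluids, was tested in ciliated cells alone. It stood at 129, 129 and 173 CPM in AML 1, 2 and 3 and at 196, 130 and 111 CPM in Control 1, 2 and 3. The groups overlapped, and the log2 change was -0.03 ± 0.23 (edgeR adjusted p = 0.981, with 0.616% of genes called).

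The 4 called differences were also set against the mean change of the other classes in 1 fit of all 11. Of the 9 genes none was called in any class (edgeR, 99 pairs), and 0.508% of all gene and class pairs were called. In alveolar type 2 cells the difference was -1.51 ± 0.52 for Igfbp7 and -1.32 ± 0.51 for Igfbp6 (edgeR adjusted p = 0.189 and 0.276). For Igfbp5 in smooth muscle it was -2.61 ± 0.99 (edgeR adjusted p = 0.472). The Igfbp6 difference lay below 0, although Igfbp6 was called higher in type 2 cells. The other classes included arterial endothelium and smooth muscle, where Igfbp6 had 0 UMIs in every Control library. Igf1 and Igfbp2 had no UMI in some classes, and the fit gave no usable standard error for them in any class. The same held for Igfbp6 in arterial endothelium and smooth muscle. For these pairs, the fall of Igf1 in alveolar fibroblasts among them, this fit could not decide whether the change differed. At an unadjusted p below 0.05, 13 of the 99 pairs passed, and 8.1% of all gene and class pairs did. The lowest adjusted p was that of Igf1r in alveolar fibroblasts (difference of log2 changes 0.66 ± 0.19, edgeR adjusted p = 0.0623, with 1.27% of genes called in that class). Among the fits that left out a library or used other size factors, it was called only without AML 1 (edgeR adjusted p = 0.0387).

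The wider IGF pathway was read from a list of 46 other genes, of which 38 were tested in at least 1 class, giving 294 pairs. Of these, edgeR called 4 higher and 4 lower in AML, or 2.72%, beside 604 higher and 899 lower among all genes. The median log2 change of the list lay between -0.22 in smooth muscle and 0.14 in alveolar duct myofibroblasts, with all genes near 0 in each class.

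Among proteases and their inhibitors, Pappa, which cuts IGFBP4, rose in the alveolar fibroblasts in which Igf1 fell. It stood at 59.2, 112 and 51.0 CPM in AML 1, 2 and 3, against 28.1, 28.6 and 15.5 CPM in Control 1, 2 and 3. The groups were apart (log2 change 1.56 ± 0.36, edgeR adjusted p = 0.0194). The Pappa call was lost without AML 2 (edgeR adjusted p = 0.152), Control 1 (0.0504) or Control 3 (0.122), with equal cell numbers (0.0972), at the coarser clustering (0.165) and in DESeq2 (adjusted p = 0.0504). Timp3, an inhibitor of metalloproteinases, rose in aerocytes, at 3923, 6053 and 5000 CPM in AML 1, 2 and 3, against 1362, 1547 and 1193 CPM in Control 1, 2 and 3. The groups were far apart (log2 change 1.88 ± 0.22, edgeR adjusted p = 0.000386, with 3.18% of genes called). It was also called in general capillary endothelium and the mainly endothelial platelet class (log2 changes 2.43 and 1.91, edgeR adjusted p = 0.0218 and 0.00617, with 2.05% and 1.93% of genes called). The general capillary call was lost without AML 3 or any 1 of the Control libraries (edgeR adjusted p = 0.0648 to 0.165) and the platelet class call without AML 2, AML 3 or Control 1 (0.0808 to 0.163). Htra1, a protease gene, fell in alveolar type 2 cells (log2 change -1.15 ± 0.30, edgeR adjusted p = 0.0317).

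Downstream of the receptor, Irs1, which links IGF1R to PI3K, fell in aerocytes. It stood at 32.2, 7.77 and 24.4 CPM in AML 1, 2 and 3, against 82.3, 71.2 and 57.9 CPM in Control 1, 2 and 3. The groups did not overlap, though the share of all genes of which this was true was not counted in aerocytes. AML 2 was lowest (log2 change -1.61 ± 0.31, edgeR adjusted p = 0.0104, and 0.0811 without AML 3). Foxo4, a transcription factor that AKT restrains, fell in alveolar type 2 cells (log2 change -1.28 ± 0.33, edgeR adjusted p = 0.0315). Tsc2, a brake on mTORC1, fell in general capillary endothelium (log2 change -0.91 ± 0.18, edgeR adjusted p = 0.0368). The Foxo4 call was lost without AML 2, AML 3, Control 1 or Control 2 (edgeR adjusted p = 0.0653 to 0.194), the Htra1 call without AML 2, AML 3, Control 1 or Control 3 (0.106 to 0.164), and the Tsc2 call without any 1 library but AML 1 (0.061 to 0.156). DESeq2 called neither Foxo4 (adjusted p = 0.118) nor Htra1 (0.127), and equal cell numbers ended the Foxo4 call (edgeR adjusted p = 0.141). The Tsc2 call was also lost with doublets kept (edgeR adjusted p = 0.0625), with equal cell numbers (0.0688) and when the class was limited to clusters with 20 cells in every library (0.232).

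**Figure D5:**
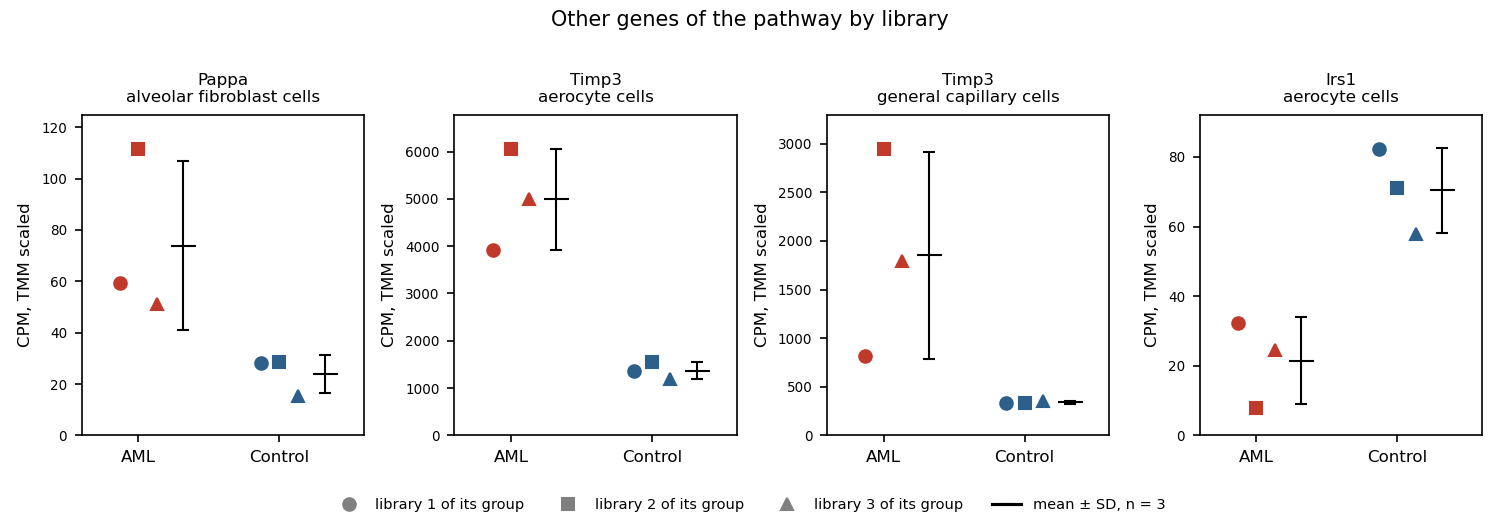
Levels in CPM of Pappa in alveolar fibroblasts, Timp3 in aerocytes and general capillary endothelium, and Irs1 in aerocytes, with AML libraries left of Control libraries. Points are libraries and bars are group means ± SD (n = 3). Pappa and Timp3 are higher in all AML libraries and Irs1 is lower, with no overlap of the groups.

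Over 14 classes with at least 50 cells, the genes whose class pattern was most like that of each member were found by Pearson's r of log2(CPM + 1) among 10877 genes. This describes levels over classes that share libraries and depth. Igf1 was most like Igsf10 (0.93), Tnfsf13b (0.93) and Prr16 (0.92). Igf1r was most like Rlf (0.95), Cdc37 (0.90) and Morf4l1 (0.89). Igf2r had weaker matches, in Axin1 (0.78), Cdk8 (0.76) and Sms (0.76). Igfbp2 followed Cox6b1 (0.95), Atp5md (0.94) and Bcap31 (0.91). Igfbp3 followed Abcc9 (0.92), Oaf (0.92) and Igsf10 (0.92). Igfbp4 followed Spin4 (0.93), Ntn1 (0.92) and Map4k4 (0.89). Igfbp5 followed Atp8b2 (0.91), Zbtb7c (0.86) and Adamts5 (0.85). Igfbp6 followed Mrc2 (0.89) and Hspb8 (0.87). Igfbp7 followed Cdkn1b (0.84), Samd4 (0.84) and 1810055G02Rik (0.84). Among the members themselves the closest pair was Igf1 and Igfbp3 (0.85).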

How the data were processed

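The deposited values are raw counts, 1 per UMI, which the authors made for each gene in each barcode with Cell Ranger on mm10 (version 6.0.1 per the file headers and 7.0.0 per the submitters' processing notes, so the version is open and the use of intron reads with it). Libraries used the 10x Chromium 3' v3.1 kit, per the labels' protocols. Cells with under 500 genes or over 15% mitochondrial UMIs and predicted doublets were removed, 23745 cells were clustered (scanpy, Leiden, resolution 1.0) and clusters were named from marker lists. The 9 genes and all lists were chosen with earlier results of these data known. UMIs were summed per library and class and tested with edgeR 4.0.16 (TMM, filterByExpr, robust quasi-likelihood, Benjamini-Hochberg over all genes of a class), AML minus Control, 3 libraries each. DESeq2, no count filter, other size factors, equal cells, other clusterings, leaving out each library and a replicate block were tried. Floors cover counting error only, while the SE of a log2 change also takes in the spread between libraries. Named genes were the 9 members, the pathway genes called in a class and the 3 most similar genes, of which 1 is not reported here. Tests were tried on simulated data. Coordinates are from GENCODE M21.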

Additional observations from a re-analysis of the deposited data

Results flagged for a closer look

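The change of Igf1 differed between fibroblast classes, by a test of the difference itself. In alveolar fibroblasts minus alveolar duct myofibroblasts the difference of log2 changes (AML over Control) was -2.53 ± 0.36 (edgeR adjusted p = 0.000708), and without each library in turn it lay between -2.79 and -2.34. In alveolar fibroblasts minus adventitial fibroblasts it was -3.77 ± 0.41 (edgeR adjusted p = 3.91e-07), and without each library in turn between -4.07 and -3.53. The alveolar fibroblast class held 105, 320 and 251 cells in AML 1, 2 and 3, against 44, 60 and 68 cells in Control 1, 2 and 3. Both differences were chosen for testing after the levels had been seen.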

How the results depend on the processing

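The 4 calls among 57 tested pairs became 8 with DESeq2 (2.56% of all genes called). With no filter on low counts there were 15 (2.36% of all genes called), of which 12 were among the 57 and 3 were pairs that the filter leaves out (Igf1 in aerocytes, Igfbp3 in arterial endothelium, and Igfbp2 in smooth muscle, whose 27 UMIs were all in AML 3), and the other settings without a library left out or a block gave 3 or 4. These counts did not always hold the same pairs. With doublets kept, Igfbp7 in alveolar type 2 cells and Igfbp5 in smooth muscle were lost, and Igfbp3 in general capillary and arterial endothelium was gained. At the coarser clustering, Igf1 in alveolar fibroblasts was lost and Igfbp5 in general capillary endothelium was gained. No smooth muscle class was named there. Without each library in turn the count lay between 2 and 10. Of 870 log2 changes recomputed under alternatives, 793 kept their direction and side of the threshold, 37 changed sign with no call on either side, 28 became calls and 12 lost theirs. The count of members whose change differed from the other classes was 0, and 0 to 1 without each library in turn. With all libraries, Igf1 and Igfbp2 could not enter that count, for want of a usable standard error. The 8 pathway calls became 14 with no filter and 5 with equal cell numbers, and 2 to 15 without each library in turn. The cause of these moves was not tested. The numbers of called genes per class depend on single libraries: general capillary endothelium had 237, and 5 without Control 1 or 1228 without AML 1.

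Libraries were not taken as paired by replicate number. Correlations of same-numbered libraries lay between -0.179 and 0.187 over the classes, and no class had all 3 pairs above 0.1, a rule that cannot exclude a pairing. In the pericyte class they were 0.187, 0.146 and 0.0403, against at most 0.0436 for libraries of unlike number. In smooth muscle they were -0.106, -0.179 and 0.0193, against at most 0.178. With a replicate block there were 8 member calls and 11 pathway calls; the block added Igfbp3, Igfbp4 and Igfbp6 in alveolar duct myofibroblasts and Igfbp5 in general capillary endothelium.

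Libraries are few, AML cells are shallower, and 42 pairs of a member and a class had counts too low for the filter.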
